A study of Mus musculus with 6 samples.

Results

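H19 and 9 other imprinted growth genes were followed in RNA-seq libraries of Merkel cell-enriched and unenriched mouse skin cells. The members were Igf2, Igf2r, Meg3, Dlk1, Peg3, Mest, Cdkn1c, Plagl1 and Grb10 beside H19, each found by an exact match of its symbol, which gave 10 of the 54532 genes in the count table. They were chosen by the levels in these same libraries, because H19 was nearly absent from the NCAM-enriched samples and present in every bulk sample. The differences between the groups are therefore given for the members as descriptions, without p-values.

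All libraries came from dorsal skin of 4-week-old C57BL/6 mice of both sexes, and the labels name no altered gene and no treatment. The NCAM_enriched group held 3 libraries of cells captured with PSA-NCAM microbeads and then sorted as NCAM-PE+ and DAPI-, and the Total_skin_DAPI_neg group held 3 libraries of DAPI- cells sorted without the NCAM selection, called bulk skin here although the study's methods describe them as epidermal. Each library was a Smart-seq2 preparation of 500 sorted events. The study's methods say that the cells were sorted in triplicate. Neither they nor the labels say that the 3 libraries of a group came from separate animals, so the spread between them may be technical. The p-values below may then not measure variation between mice. NCAM is carried by Merkel cells, the touch-sensing neuroendocrine cells of the epidermis, but also by other cell types.

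Imprinted genes are read from only one of the parental copies, and DNA methylation laid down in the egg or the sperm decides which copy that is. Many of them act on growth before and after birth. Paternally expressed genes such as Igf2 tend to promote growth and maternally expressed ones such as H19, Igf2r, Cdkn1c and Grb10 to restrain it, and several are strongly expressed in embryonic tissue and fall after birth. The counts did not separate the parental copies, so whether the members or other listed genes were imprinted in these cells was not measured.

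On the GRCm38 assembly with GENCODE M21 annotation, H19 is a long intergenic RNA gene on the minus strand at chr7:142575529-142578143. Igf2 (chr7:142650766-142666816, minus strand) lies 72.6 kb from it, and Cdkn1c (chr7:143458339-143461050, minus strand) lies a further 792.0 kb along the same chromosome. Dlk1 (chr12:109452823-109463336) and Meg3 (chr12:109541001-109571726), both on the plus strand, are 77.7 kb apart and form another imprinted domain. H19 and Meg3 are noncoding and the other 8 members are annotated as protein-coding.

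H19 and Meg3 carry microRNAs inside their exons, in Meg3 Mir1906-1 as well as Mir770. The 4 mature sequences of Mir675 and Mir770 are shown. They are known small products of the member that chose the group and of the member with the widest range. They are from RefSeq (GRCm38.p6), written 5′ to 3′, with the seed, bases 2 to 8, in capitals.
mmu-miR-675-5p: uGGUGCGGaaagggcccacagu
mmu-miR-675-3p: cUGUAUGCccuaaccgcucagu
mmu-miR-770-5p: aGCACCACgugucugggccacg
mmu-miR-770-3p: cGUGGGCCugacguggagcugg
The miR-675 pair lies in H19 (chr7:142577112-142577133 and chr7:142577078-142577099) and the miR-770 pair in Meg3 (chr12:109563710-109563731 and chr12:109563744-109563765). The 4 seeds all differ, so these microRNAs do not form a seed family. The rows for the Mir675 and Mir770 hairpins held 0 counts in every library. Mir483, within the span of Igf2 but outside its exons, had 6 NCAM-enriched and 0 bulk counts. Mir335, placed likewise in Mest, had 0. Smart-seq2 captures polyadenylated RNA, and mature microRNAs were not measured.

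RefSeq start-site windows, 250 bases before to 50 after, were matched for 8 of the 10 members. H19 and Cdkn1c had no matched window, so no letters were searched for them. The 15 windows, several of them from the same gene, had a median GC content of 61.3% and a median of 13 CpG dinucleotides. The same medians over all 32851 windows in the table were 52.7% and 7. The letters TGCCGC, which the imprint-keeping factor Zfp57 binds when methylated, were searched on both strands. They occurred in 6 of the 15 windows, in Grb10, Igf2, Meg3, Mest and Plagl1, and in 11.6% of all windows. The Mest windows with a match start only 3 bases apart and are largely the same sequence. GGGGCCCC, the core of the site known for the member Plagl1 and its own reverse complement, occurred in 1 member window, that of Peg3, and in 1.08% of all windows. A match describes the letters only. The windows of Plagl1, Meg3 and Peg3 are shown as examples of windows with a match, each on its gene's strand with the match in capitals (GCGGCA is TGCCGC read on the other strand).
Plagl1, chr10:13090582-13090881, plus strand: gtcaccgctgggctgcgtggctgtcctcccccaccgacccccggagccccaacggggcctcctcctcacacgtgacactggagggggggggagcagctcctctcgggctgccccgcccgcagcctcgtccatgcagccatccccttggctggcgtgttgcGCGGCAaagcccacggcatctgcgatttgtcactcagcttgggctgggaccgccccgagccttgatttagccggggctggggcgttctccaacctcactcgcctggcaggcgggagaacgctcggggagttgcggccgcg
Meg3, chr12:109540746-109541045, plus strand: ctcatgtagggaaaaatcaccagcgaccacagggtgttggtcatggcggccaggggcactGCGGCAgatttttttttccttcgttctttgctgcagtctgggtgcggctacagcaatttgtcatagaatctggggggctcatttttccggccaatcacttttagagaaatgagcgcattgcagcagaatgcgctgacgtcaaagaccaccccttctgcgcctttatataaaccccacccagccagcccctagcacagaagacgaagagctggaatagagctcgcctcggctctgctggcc
Peg3, chr7:6730370-6730669, minus strand: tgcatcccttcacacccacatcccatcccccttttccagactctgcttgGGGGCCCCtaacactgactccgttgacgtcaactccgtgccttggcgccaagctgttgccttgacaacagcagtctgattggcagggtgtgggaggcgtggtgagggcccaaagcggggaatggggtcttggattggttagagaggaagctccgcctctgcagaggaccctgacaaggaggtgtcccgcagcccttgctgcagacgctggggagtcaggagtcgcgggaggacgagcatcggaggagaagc

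Library totals were 1343190 to 3798136 counts in the NCAM-enriched group and 3333753 to 4481830 for bulk skin, so that 1 count stood for 0.214 to 0.738 CPM, the library-scaled unit (TMM factors) in which levels are given below. The summed level of 10 Merkel cell markers was 477 to 1600 CPM in the NCAM-enriched libraries and 131 to 184 in bulk skin. NCAM-enriched library 2 stood apart in its collagen RNA. A list of 12 fibroblast markers summed to 32000 CPM there, to 463 and 120 in libraries 1 and 3, and to 11000 to 19000 in bulk skin, but 3 collagens (Col1a1, Col1a2 and Col3a1) made up most of this sum. They came to 30700 CPM in library 2 and 7950 to 15700 in bulk skin, whereas the other 9 markers came to 1300 in library 2, 138 and 84.2 in libraries 1 and 3, and 3030 to 3320 in bulk skin. Results that rest on library 2 are given with and without it. Among 13157 genes with enough counts for edgeR's quasi-likelihood test, an adjusted p of at most 0.05 marked 1.04% as higher and 1.55% as lower in NCAM-enriched cells, and the median log2 fold change was -0.07.

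The members divided into 3 that were lower in each NCAM-enriched library than in each bulk library, H19, Igf2 and Plagl1, and 7 whose groups overlapped. Of the 10 members, 8 passed the count filter, and Igf2 and Dlk1 were too low for it. Groups failed to overlap with the NCAM-enriched side lower for 2 of the 8 tested members and for 19.8% of all tested genes. The count comes from the contrast that chose the members and is given as a description. The fitted log2 fold change was below 0 for 7 of the 8, with a median of -1.12, against 6887 of the 13157 tested genes and a median of -0.07. This too is a description, and for Igf2r and Cdkn1c, which are among the 7, no direction can be given.

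**Figure D1:**
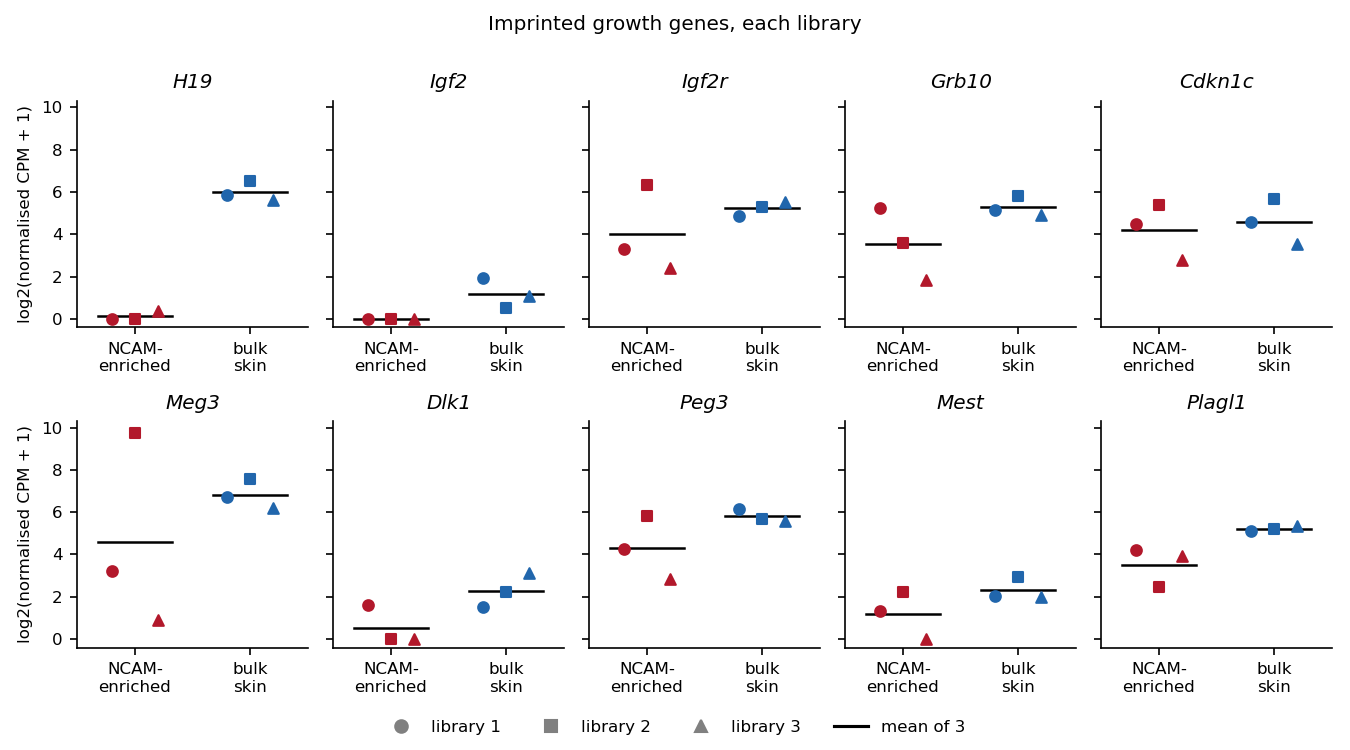
Level of each of the 10 members in each library, as log2 of normalised CPM plus 1 (vertical axis), for the NCAM-enriched (red) and bulk skin (blue) groups; points are libraries and black bars the means of the 3 log2 values. H19 lies at 0, 0 and 0.281 CPM in the NCAM-enriched libraries against 47.7 to 89.2 in bulk skin, whereas Meg3 and Igf2r are highest of all 6 in NCAM-enriched library 2.

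H19, an abundant fetal RNA that restrains growth, was represented by 0, 0 and 1 counts in NCAM-enriched libraries 1, 2 and 3. Bulk skin libraries 1, 2 and 3 held 184, 417 and 176 counts, or 56.6, 89.2 and 47.7 CPM. The groups were far apart, and the spread among the bulk libraries was small beside that gap (coefficient of variation 33.9%, n = 3). Bulk skin exceeded the NCAM-enriched group 459-fold, with a 95% counting interval of 82.2 to 18200 that is wide because it rests on a single count. Without NCAM-enriched library 3, which supplied that count, H19 was at least 73.7-fold lower, taking 3 counts over the group as the floor. The interval and the floor cover counting error only.

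Igf2, the growth factor next to H19 that shares its enhancers, gave 0 counts in the 3 NCAM-enriched libraries and 9, 2 and 4 in bulk skin. The bulk levels were 2.77, 0.428 and 1.08 CPM, and Igf2 was at least 2.96-fold lower in the NCAM-enriched group, a bound that fell to 1.42 without NCAM-enriched library 3 and to 1.64 without bulk library 1. Bulk library 1 was the highest for Igf2 and bulk library 2 the highest for H19. Of Igf2's annotated exonic length, 64.5% is shared with Gm49394 and Igf2os, whose rows held 0 counts, and how reads in shared exons were treated is not given in the sources used here. A shortfall from dropped reads and a low level of Igf2 cannot be told apart.

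Igf2r, the receptor that binds Igf2 and carries it to lysosomes, was not absent from any library. It measured 8.72, 80.5 and 4.21 CPM in the NCAM-enriched libraries and 28.0, 38.3 and 45.5 in bulk skin. NCAM-enriched library 2 was above every bulk library and the other two were below every one. The fitted log2 fold change was -0.23 ± 1.02 (SE) with all libraries, -2.54 without NCAM-enriched library 2, and above 0 without library 1 (0.18) or 3 (0.21), so no direction can be given. Grb10, an adaptor that dampens insulin and IGF receptor signalling, had its highest NCAM-enriched level in library 1 instead. Its levels were 36.4, 11.1 and 2.53 CPM against 33.9, 54.8 and 29.2 in bulk skin. The log2 fold change was -1.20 ± 0.94, or -2.56 without NCAM-enriched library 1 and -0.73 without library 3.

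Meg3, the maternally expressed RNA of the Dlk1 domain, had the widest range of the members. NCAM-enriched library 2 held 857 CPM, 104-fold the higher of the other NCAM-enriched levels of 8.21 and 0.842. Bulk skin measured 105, 187 and 72.3 CPM, between these extremes. The log2 fold change of 1.29 ± 1.64 with all libraries became -4.87 without library 2, and it was also below 0 by limma-voom, at -4.01. The direction of Meg3 between the groups thus rested on 1 library. Dlk1, the paternally expressed Notch-like protein of the same domain, gave 4, 0 and 0 counts in the NCAM-enriched libraries and 6, 17 and 28 in bulk skin. Its bulk level was 7.54-fold the NCAM-enriched one (95% counting interval 2.77 to 28.7), or 3.63-fold without NCAM-enriched library 3 and 4.98-fold without bulk library 3, and the groups overlapped through NCAM-enriched library 1. Library 2, with the highest Meg3, held no Dlk1 count.

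Peg3 and Mest are paternally expressed genes for a zinc-finger protein and a hydrolase-like protein. Peg3 measured 18.0, 55.4 and 6.18 CPM in the NCAM-enriched libraries and 69.3, 50.7 and 47.1 in bulk skin. Library 2 alone reached the bulk range. The log2 fold change of -1.04 ± 0.78 was -2.22 without library 2 and -0.64 without NCAM-enriched library 3. Mest was near the detection limit, with 3, 5 and 0 counts against 10, 31 and 11, or 1.54, 3.69 and 0 CPM against 3.08, 6.63 and 2.98. Its log2 fold change was -1.31 ± 1.45, with -2.52 without NCAM-enriched library 2 and -0.74 without library 3. The exons of Mest share 23.1% of their length with Copg2, a gene with 365 NCAM-enriched and 417 bulk counts, and with no strand setting given, reads of the pair cannot be told apart there.

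Cdkn1c, the p57 inhibitor of cyclin-dependent kinases, had similar ranges in both groups. It measured 21.5, 40.6 and 5.90 CPM in the NCAM-enriched libraries and 22.5, 50.5 and 10.6 in bulk skin. The spread within bulk skin was large (coefficient of variation 73.7%, n = 3). The log2 fold change of -0.27 ± 0.92 lay between -1.03 without NCAM-enriched library 2 and 0.40 without bulk library 2, so no direction can be given. Plagl1, a zinc-finger transcription factor that regulates other imprinted genes, was the steadiest in bulk skin. Its bulk levels of 33.5, 35.3 and 40.3 CPM had a coefficient of variation of 9.68% (n = 3), and the NCAM-enriched levels were 17.4, 4.43 and 14.0. Here NCAM-enriched library 2 was the lowest, and the log2 fold change of -1.57 ± 0.75 stayed between -1.93 and -1.20 whichever library was left out.

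Among the NCAM-enriched libraries, 5 of the 10 members were highest in library 2, namely Meg3, Igf2r, Peg3, Mest and Cdkn1c, while H19, Igf2 and Dlk1 had 0 counts and Plagl1 its lowest level there. The share of all genes that were highest in library 2 is not given here, so this count is not a trait of the members. Leaving library 2 out, the groups did not overlap for 6 of the 8 tested members, with the NCAM-enriched side lower, against 26.3% of all tested genes. With library 2 they did not overlap for 2 of the 8, against 19.8%. Over all 10 members the number without library 2 was 7, which includes Igf2, a gene too low to be tested. These counts are descriptions, since the same contrast chose the members and library 2 was singled out by its values. In these bulk libraries of pooled cells, fewer cells of a type and less RNA per cell cannot be told apart. The marker sums moved with the groups as well. In library 2, which held 0 counts of H19, 5 of the 12 fibroblast markers were above every bulk library, 6 were below every one (Dcn, Lum, Dpt, Thy1, Mfap5 and Twist2, the last at 0) and 1 was within the bulk range. Meg3 and the collagen sum were both highest of the 6 libraries there. The part of fibroblast RNA in the levels of H19 and Meg3 was not tested.

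Other cell types set the groups apart in the same direction as H19. The sum of 9 T and NK cell markers was 35.9, 68.7 and 61.8 CPM in the NCAM-enriched libraries and 4120, 4480 and 4340 in bulk skin, and Cd3d and Cd2 were at 0 in the NCAM-enriched group. The 8 Langerhans and myeloid markers summed to 27.3 to 369 CPM against 11700 to 19500, and the 5 red blood cell markers to 2.95 to 23.1 against 740 to 1160. The 6 mural cell markers did not separate as far, with 60.9 to 1010 against 1050 to 1430 CPM, and the 7 endothelial markers gave 14.3 to 48.7 against 60.6 to 85.2. Suprabasal keratinocyte markers went the other way, with 13400 to 34600 CPM against 1450 to 1600. So did the hair follicle sum, mostly Krt17 and Krt79, with 6010 to 28500 against 2180 to 2820. The basal keratinocyte, melanocyte, skeletal muscle, Schwann and adipocyte sums overlapped between the groups. The part of any of these cell types in the levels of the members was not tested.

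**Figure D2:**
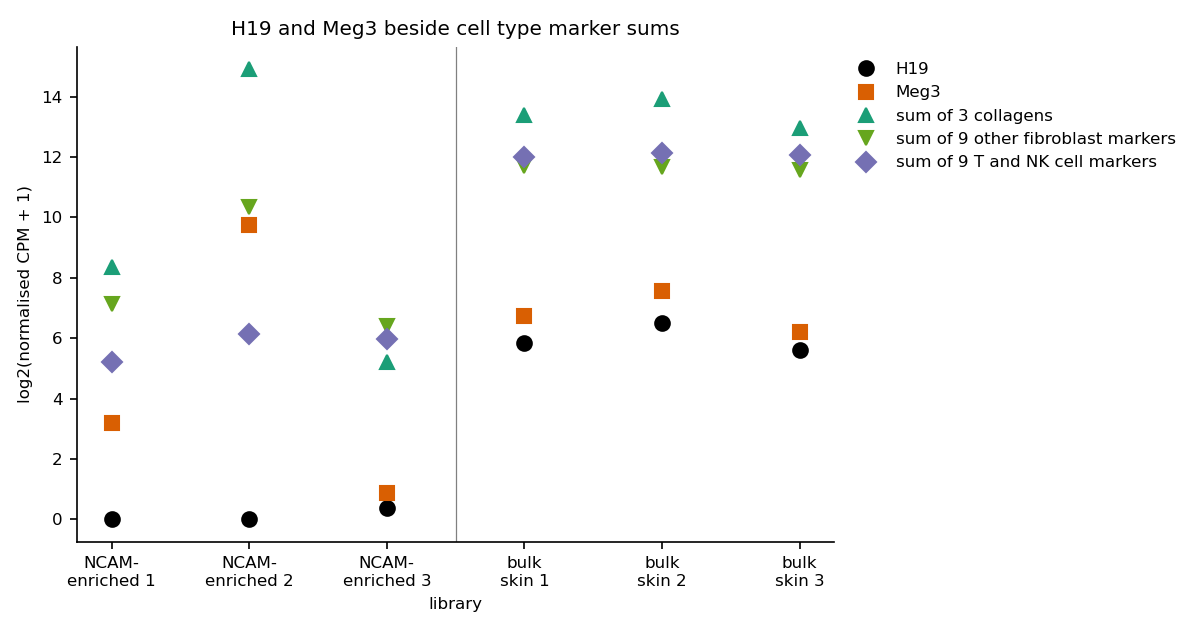
H19 (black circles), Meg3 (orange squares), the sums of 3 collagens (green triangles) and of 9 other fibroblast markers (light green inverted triangles), and the sum of 9 T and NK cell markers (purple diamonds) in each of the 6 libraries, as log2 of normalised CPM plus 1. NCAM-enriched library 2 has the highest collagen sum (30700 CPM) and the highest Meg3 (857 CPM) but no count of H19, its other fibroblast markers (1300 CPM) lie below bulk skin, and the T and NK sum is below 70 CPM in the 3 NCAM-enriched libraries.

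Within bulk skin the members could be ranked per exonic length, in TPM, counts divided by exonic length and scaled to a fixed total. H19 was the most abundant at 74.2 TPM ± 30.6 (SD, n = 3), followed by Cdkn1c at 39.0 ± 31.6 and Meg3 at 19.1 ± 10.7. Plagl1, Grb10, Peg3 and Igf2r formed a group between 13.1 and 11.3 TPM. Mest at 3.06, Dlk1 at 2.21 and Igf2 at 0.657 TPM came last. The only neighbours in this order whose ranges over the 3 libraries did not overlap were Igf2r (7.46 to 14.1 TPM) and Mest (1.93 to 5.08). H19 and Cdkn1c overlapped, at 55.9 to 110.0 and 14.9 to 74.8 TPM. Dividing the same counts by only the exonic length that no other gene shares put Igf2 at 1.85 and Cdkn1c at 56.3 TPM. The order stayed as it was. Reads were not recounted, so these values hold only if every read in shared exons had been dropped. H19 exceeded its neighbour Igf2 per length in every bulk library. In bulk library 2, the deepest, 5 of the 10 members had their highest bulk CPM, a count given without the share over all genes.

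**Figure D3:**
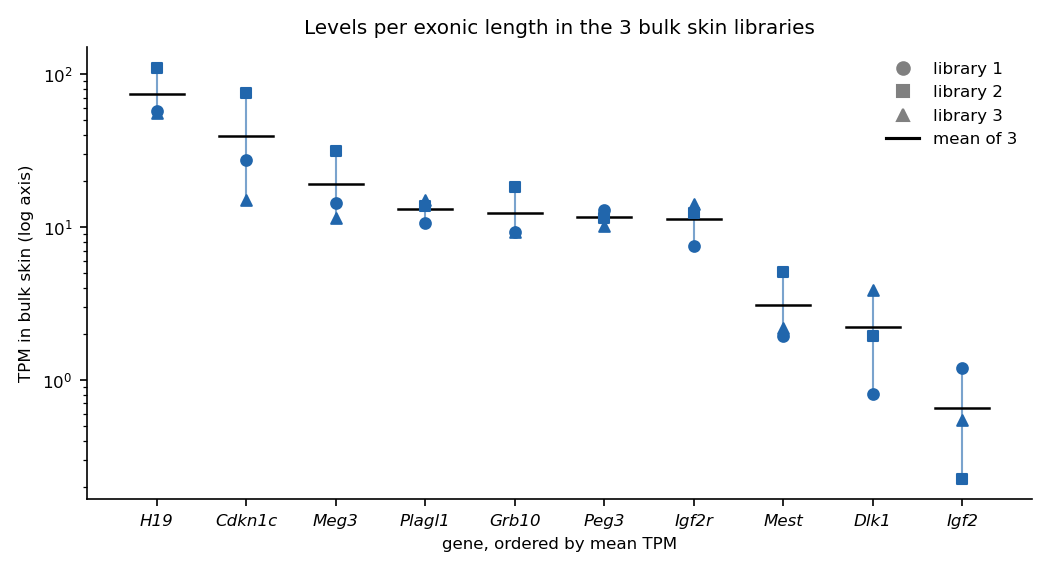
Level of each member in the 3 bulk skin libraries, in TPM on a log axis, ordered by the mean; symbols are libraries, vertical lines their range and black bars the arithmetic means. H19 leads at 74.2 TPM and Igf2 is last at 0.657, and the break between Igf2r and Mest is the only one between neighbours with no overlap.

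Genes whose levels over the 6 libraries were most like those of H19 were sought among the tested genes by Pearson's r of log2 CPM. The 5 closest were Coch, Dscc1, Cd244a, Trac and Akr1c14, each with r = 0.998. Coch, an extracellular matrix protein, had 1 NCAM-enriched count and 1807 bulk counts, and Cd244a, a receptor of NK and T cells, had 1 and 754. Trac, the constant part of the T cell receptor alpha chain, had 0 and 317, Akr1c14, a steroid-metabolising reductase, 0 and 193, and Dscc1, a replication factor subunit, 0 and 100. These values are descriptions over 6 libraries that share the split into groups. The members came far lower in the same order, Plagl1 first at r = 0.839 (rank 1350), then Grb10 at 0.624, Peg3 at 0.613, Mest at 0.594, Igf2r at 0.419, Meg3 at 0.363 and Cdkn1c at 0.197 (rank 7041).

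Most other imprinted genes did not pass the test between the groups, and neither did most genes, 12816 of the 13157 tested. Of 64 further genes listed as imprinted, in whatever tissue, 55 had a count and 37 were tested. Among these, edgeR called 2 lower and 0 higher, 5.41% of those tested against 1.55% lower over all genes. Before adjustment 3 of the 37 had a p under 0.05, against 18.9% of all tested genes. DESeq2 called 3 lower and 0 higher (background 7.10% lower and 5.06% higher), and limma-voom 4 lower and 0 higher (background 6.45% and 2.67%). The median log2 fold change of the 37 was -0.26, with 20 below 0 and 17 above.

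Qpct, the enzyme that forms N-terminal pyroglutamate, gave 0 counts in the NCAM-enriched libraries and 68.0, 45.4 and 78.8 CPM in bulk skin, at least 143-fold lower (edgeR quasi-likelihood test, adjusted p = 0.0140). The call was lost without bulk library 1, 2 or 3 (edgeR adjusted p = 0.128, 0.0943 and 0.130), and the bound was 68.6-fold without NCAM-enriched library 3. Cd81, a tetraspanin of many immune and other cells, was lower in all 3 NCAM-enriched libraries, at 143, 161 and 164 CPM against 654, 617 and 483. The difference on the log2 scale was -1.88 ± 0.34 (edgeR adjusted p = 0.0289), and the call was lost with the replicate block (edgeR adjusted p = 0.0867), without NCAM-enriched library 1 (0.0779) and without bulk library 1, 2 or 3 (0.194, 0.166 and 0.130). The immune marker sums given above moved the same way as both genes. So did the red blood cell, endothelial and mural sums and that of the 9 fibroblast markers other than collagens. The sum of the 3 collagens did not, being above bulk skin in NCAM-enriched library 2. In that library 5 of the 12 fibroblast markers were above every bulk library and 6 were below every one. Of the mural and endothelial markers, Cspg4, Myh11, Tie1 and Vwf exceeded every bulk library in at least 1 NCAM-enriched library, and the rest did not. The part of any of these cell types in the levels of Qpct and Cd81 was not tested.

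Among imprinted genes without a call, Kcnq1ot1 and H13 had the highest mean CPM, which is not scaled for length. Kcnq1ot1, the long RNA that silences the domain of Cdkn1c on the paternal copy, measured 143, 354 and 125 CPM in the NCAM-enriched libraries and 80.3, 121 and 232 in bulk skin (edgeR adjusted p = 0.651). It lies antisense to Kcnq1, whose reads could not be told apart from it without a strand setting. H13, a signal peptide peptidase, measured 114, 124 and 126 CPM against 211, 174 and 90.2 (edgeR adjusted p = 0.705). The groups overlapped for both. Rian and Nnat, named after their values were seen, had counts in only 1 NCAM-enriched library, library 2, at 15.5 and 67.9 CPM. Rian, a noncoding RNA of the Dlk1 domain, measured 13.9, 23.1 and 7.58 CPM in bulk skin, a range that holds its level in library 2. Nnat, a paternally expressed proteolipid, measured 1.54, 15.0 and 2.71, all below library 2.

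**Figure D4:**
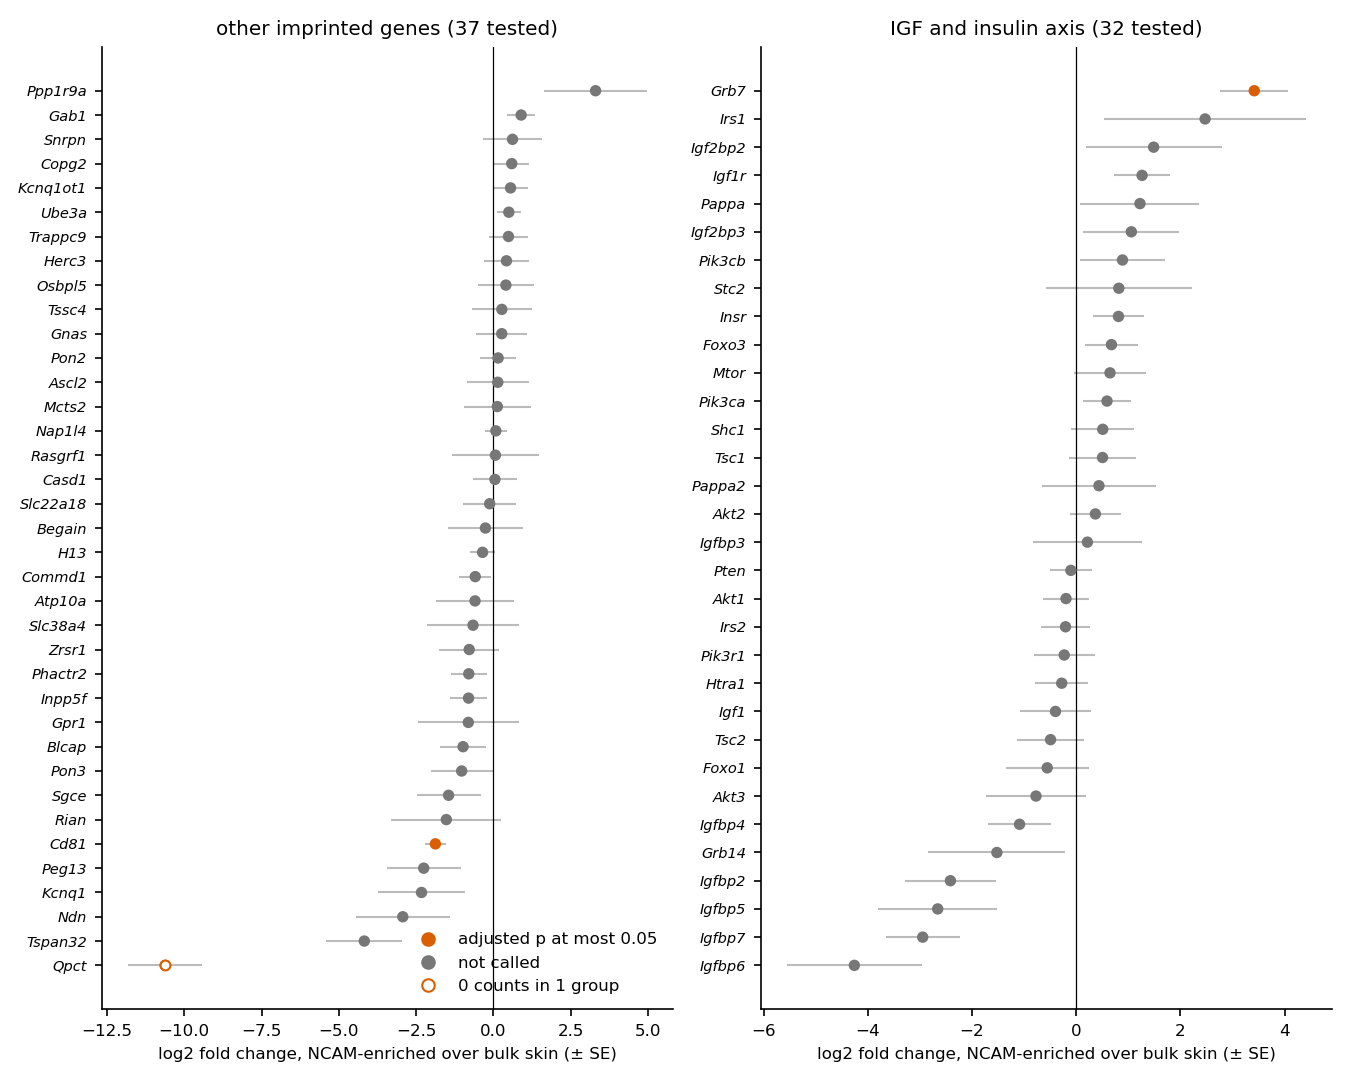
Log2 fold change of NCAM-enriched over bulk skin with its standard error (horizontal axis) for the 37 tested other imprinted genes (left) and the 32 tested genes of the IGF and insulin axis (right), ordered by value; orange marks an edgeR adjusted p of at most 0.05. Qpct and Cd81 are called lower and Grb7 higher, and the position of Qpct, drawn hollow, depends on the prior count because it had 0 counts in the NCAM-enriched group.

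The genes that carry or temper the IGF signal were examined next, since Igf2, Igf2r and Grb10 belong to that pathway. Of 39 genes listed, 37 had a count and 32 were tested, and edgeR called 1 higher and 0 lower, against 1.04% and 1.55% of all genes, with 6 of the 32 below 0.05 before adjustment (18.9% of all genes). By DESeq2 there were 1 higher and 3 lower (5.06% and 7.10% of all genes), and by limma-voom 1 higher and 2 lower (2.67% and 6.45%). The median log2 fold change was 0.29, with 15 below 0 and 17 above. Grb7, an adaptor of the same family as Grb10, was the gene called, at 92.8, 128 and 108 CPM in the NCAM-enriched libraries and 3.08, 15.6 and 12.5 in bulk skin. The log2 fold change reached 3.42 ± 0.65 (edgeR adjusted p = 0.0341), and the call was lost with the replicate block (0.0511), without NCAM-enriched library 1 (0.0566) and without bulk library 1, 2 or 3 (edgeR adjusted p = 0.155, 0.153 and 0.194). Every NCAM-enriched library was above every bulk library for Grb7, whereas the groups overlapped for Grb10.

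Among uncalled genes of the axis, the highest mean CPM (not scaled for length) belonged to Igfbp3 and Igfbp5, secreted proteins that bind IGFs outside the cell. Igfbp3 measured 1140, 777 and 14.3 CPM in the NCAM-enriched libraries and 670, 602 and 439 in bulk skin (edgeR adjusted p = 0.942). NCAM-enriched library 3 was lowest of all 6 and the other two were highest. Igfbp5 measured 134, 226 and 1.68 CPM against 853, 723 and 768, a log2 fold change of -2.66 ± 1.14 (edgeR adjusted p = 0.250). Its groups did not overlap, and it passed the threshold by limma-voom (adjusted p = 0.0121) and without NCAM-enriched library 3 (edgeR adjusted p = 0.0297). Igf1 and its receptor Igf1r, named after their values were seen, were not called. Igf1 measured 48.7, 127 and 17.1 CPM against 63.7, 96.5 and 99.4 (edgeR adjusted p = 0.817). Igf1r measured 183, 404 and 92.6 against 87.4, 106 and 96.9 (edgeR adjusted p = 0.242), and like Igf2r it was highest in NCAM-enriched library 2.

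Cdkn1c belongs to the CDK inhibitors, which stop the cell cycle, and 7 others were listed. Of the 6 tested, edgeR called 0, with 2 under 0.05 before adjustment (18.9% of all genes), while DESeq2 and limma-voom each called 2 higher (5.06% and 2.67% of all genes). Cdkn1a, the p21 inhibitor, measured 2000, 798 and 1920 CPM in the NCAM-enriched libraries and 450, 651 and 488 in bulk skin. The groups did not overlap, with a log2 fold change of 1.60 ± 0.47 (edgeR adjusted p = 0.0980, DESeq2 adjusted p = 0.00847, limma-voom adjusted p = 0.0282). Cdkn2d, the p19 inhibitor, measured 21.0, 59.1 and 62.0 CPM against 76.0, 64.6 and 44.4 (edgeR adjusted p = 0.795). Cdkn2a, which did not pass the count filter and is named after its values were seen, gave 88, 13 and 2 counts in NCAM-enriched libraries 1, 2 and 3 and 0 bulk counts, so 15 remained without library 1.

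The list of 23 imprint regulators held enzymes that oxidise methylated cytosine as well as factors that set or keep imprints. Of these 23, 20 were tested and edgeR called 0, with 5 of the 20 below 0.05 before adjustment (18.9% of all genes). By DESeq2 1 was higher (5.06% of all genes), and limma-voom called 1 higher and 1 lower (2.67% and 6.45%). Tet3, a dioxygenase that oxidises methylated cytosine, measured 317, 355 and 392 CPM in the NCAM-enriched libraries and 105, 163 and 189 in bulk skin. Its groups did not overlap, with a log2 fold change of 1.25 ± 0.36 (edgeR adjusted p = 0.0955, DESeq2 adjusted p = 0.0198, limma-voom adjusted p = 0.0342). Trim28, the corepressor that Zfp57 recruits to imprinted regions, measured 227, 290 and 249 CPM against 271, 236 and 249 (edgeR adjusted p = 0.956). Zfp57 itself, named after its values were seen, gave 0 CPM in the 3 NCAM-enriched libraries and 6.16, 3.21 and 5.96 in bulk skin (edgeR adjusted p = 0.0890).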

How the data were processed

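Smart-seq2 libraries were sequenced as single-end reads. Before deposit, the authors clipped adapter and polyA bases (bbduk), filtered abundant sequences (bbmap), mapped to GRCm38 by STAR and ran featureCounts. The deposited values are raw counts per gene. Not given in the sources used here are the annotation release, the strand setting and the treatment of reads shared by overlapping genes. Every sample column was used (0 left out).

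Groups were taken from the sample labels. Genes passing filterByExpr (minimum count 10) were tested with edgeR 4.0.16 (R 4.3.3; TMM, quasi-likelihood F test, no block, Benjamini-Hochberg adjustment over 13157 genes). Alternatives were DESeq2 1.42.0, limma-voom (limma 3.58.1), RLE or upper-quartile scaling, robust dispersion, all genes with at least 1 count, a replicate block and leaving out each library. The fit was tested on simulated data. TPM used exon unions of GENCODE M21, which held 54495 of 54532 gene identifiers. Count ratios carry exact 95% intervals, for counting error only. Same-numbered libraries did not deviate together (r = 0.0226, 0.000155 and -0.00461).

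The members and gene lists were chosen with earlier results of these data known. Genes named were the members, up to 6 called genes with the smallest p and the 2 most abundant uncalled genes of each list, and the 5 genes most like H19; others are marked.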

Additional observations from a re-analysis of the deposited data

How the results depend on the processing

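The numbers of genes called higher and lower over the whole table moved most: from 137 and 204, DESeq2 took them to 661 and 928, limma-voom to 351 and 849, a filter of only 1 count to 769 and 741, and the replicate block to 50 and 92, while leaving out single libraries gave 0 to 1099 higher and 13 to 733 lower. They were lowest without a bulk library (0, 0 and 1 higher, and 13, 21 and 16 lower, without bulk library 1, 2 and 3) and were 60 and 223, 444 and 592, and 1099 and 733 without NCAM-enriched library 1, 2 and 3. Among other imprinted genes, limma-voom called 4 lower and the replicate block 1, and leaving out single libraries gave 0 to 2 higher and 0 to 4 lower. In the IGF and insulin axis, DESeq2 called 3 lower, limma-voom 2, the wider gene set 3 and the replicate block 1, with 0 higher under the block, and leaving out single libraries gave 0 to 1 higher and 0 to 3 lower. CDK inhibitors called higher numbered 2 with DESeq2, 2 with limma-voom, 3 with the wider gene set and 0 to 1 without single libraries. Imprint regulators numbered 1 higher with DESeq2, 1 higher and 1 lower with limma-voom. The cause of these moves was not tested.

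The replicate numbers share no stated animal, so the paired fit is given only as an alternative. H19 was picked for its near absence from the NCAM-enriched libraries, so its sign was fixed beforehand and the alternatives do not test it. Over the 13 alternatives its log2 fold change lay between -10.60 without NCAM-enriched library 3 and -7.51 with limma-voom. Meg3 was -2.85 with the replicate block, and Igf2r -1.83 with limma-voom. The median over all genes shifted from -0.07 to -0.37 with limma-voom, -0.36 with the replicate block, -0.17 with upper-quartile scaling and 0.08 with the wider gene set. The unshared exonic length was an alternative chosen after seeing the data. At 0.214 to 0.738 CPM per count, levels of Igf2, Dlk1 and Mest rest on few counts, and their differences below a few counts were not detectable at this depth.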
